A study of Mus musculus with 12 samples.

Results

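The 36 genes described here encode proteins of the complement system, and they were followed in mouse liver under calorie restriction (CR). They were taken by symbol from a fixed list, which was chosen with earlier results of these data known. The list covers the classical, lectin, alternative and terminal pathways, the regulators in plasma and on membranes, and the receptors of the anaphylatoxins. All 36 were found among the 24537 genes of the deposited table. Liver RNA was sequenced from 12 male C57Bl/6J mice, 3 in each of 4 groups, at day 25 or day 30 of the diet. Control (Con) mice ate ad libitum, and CR mice received 30% less food than Con mice ate, as a single daily meal given at midday according to the methods. The methods also state that CR mice ate a fortified form of the chow, adjusted weekly toward a target body weight. Amount, chow and meal time thus differ together between the diets and cannot be told apart. Mice of the study were labeled with heavy water in the days before sacrifice. All mice were 6 weeks old at the start, were wild-type for the strain and were housed singly, and each numbered liver was taken as 1 mouse. Whole liver was sequenced, so a value is an average over all of its cell types. The 2 days were chosen to stand before and after the point at which hepatic protein synthesis slows under CR, and the comparisons ask how mRNA levels differed between CR and Con mice at each day.

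Complement is a cascade of plasma proteins that tags microbes and damaged cells and can lyse them. The classical pathway starts with C1q, the lectin pathway with mannose-binding lectins and ficolins, and the alternative pathway with factors B and D. All 3 converge on C3, the step after which C5 is cleaved and C6, C7, C8 and C9 assemble into the membrane attack complex. Hepatocytes are the main source of most complement proteins in plasma, whereas C1q is made mainly by macrophages, which in liver are the Kupffer cells.

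The deposited values are FPKM, exon fragments of a gene divided by the length of its exons and by library size, so levels can be set side by side between genes on this scale. Depth was 15748767 to 23345207 reads per library, and 78.1% to 84.3% of reads lay on exons. Expression was compared as log2(FPKM + 1) with limma over 10593 genes, those that reached an FPKM of 1 in 3 or more libraries. A gene was called when its p, adjusted over all of these genes by Benjamini and Hochberg, was under 0.1. Fold changes are log2 values of CR against Con with their SE. The added 1 makes the fold change of low genes smaller than the ratio of their FPKM. The liver label held, since the hepatocyte marker list ran from Hnf4a, a hepatocyte transcription factor (mean 176 FPKM), to Alb, serum albumin (mean 36892 FPKM). Exact permutation of 3 against 3 mice cannot give a p below 0.1 for a single gene, so each adjusted p leans on a spread shared across genes.

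Complement mRNA was abundant in these livers. C3 had the highest level of the 36 genes (mean 1815 FPKM, lowest 1416 and highest 2447 over the 12 livers), followed by Vtn, which encodes vitronectin (mean 1179 FPKM), and Clu, which encodes clusterin (mean 679 FPKM). Of the 36 genes, 31 passed the limit on low values. The other 5 were Cfd, C7, Cd46, C3ar1 and C5ar1, and they are given below by their values without a test.

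**Figure D1:**
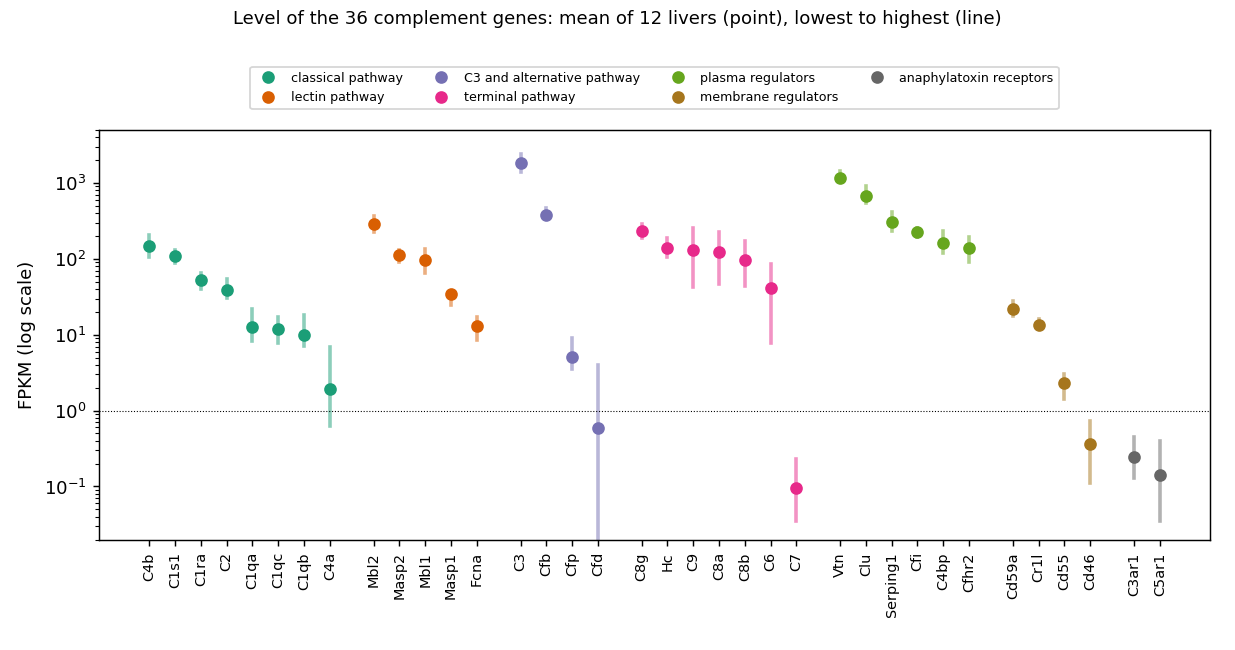
FPKM of each of the 36 genes on a log scale, grouped by arm of the system, with the mean of 12 livers as a point and a line from the lowest to the highest liver. The dotted line marks 1 FPKM. C3, Vtn and Clu lie highest, C6 spans from 7.87 to 86.6 FPKM, and the lowest value of Cfd, listed at 0, lies below the axis.

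At day 25, 9 of the 31 tested genes were called lower in CR mice and 0 higher. The background in that comparison was 14.9% of all genes called in either direction, 9.34% lower and 5.6% higher. At day 30, 12 genes were called lower and 2 higher, against a background of 24.7% called, 16.4% lower and 8.33% higher. Over both days together, with day as a covariate, 19 genes were lower and 2 higher, where 40.6% of all genes were called, 26.1% lower and 14.5% higher. The share called lower among complement genes was thus 29.0%, 38.7% and 61.3% in the 3 comparisons. Because the list was chosen with earlier results of these data known, these shares were not tested against the background. Their median log2 fold change was -0.23 at day 25, -0.27 at day 30 and -0.33 over both days, beside medians of -0.04, -0.07 and -0.05 over all genes. The balance of the background turned with the scaling. With median-ratio scaling 929 genes were higher and 799 lower at day 25 and 1319 higher and 1238 lower at day 30, while the complement genes had 1 higher and 9 lower, and 2 higher and 10 lower.

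The genes called at day 25 were C1qa, C1qb, C1qc, C1s1, Hc, C6, C9, Serping1 and Cd59a. At day 30 they were C1s1, C4a, C4b, Mbl1, Hc, C6, C8a, C8b, C9, Serping1, C4bp and Clu, which were lower, and C3 and Mbl2, which were higher. The 5 genes C1s1, Hc, C6, C9 and Serping1 were called at both days, and they were also the 5 genes whose 6 CR livers all lay below the 6 Con livers, where the background was 8.7%. Only C6 and C9 also changed by at least 2-fold at day 25, where the background for a call of that size was 1.48%. At day 30 it was C4a, C6, C8a, C8b and C9, against a background of 2.21%, and over both days C6 and C9, against 1.66%. The mice of a day did not overlap for 12 of the 31 genes at day 25, with the CR mice below in 10 and above in 2, and the background was 28.2%, with 18% below and 10.2% above. At day 30 they did not overlap for 18 genes, with CR mice below in 16 and above in 2, where the background was 36.4%, with 24.3% below and 12.1% above.

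Single mice carried much of the count at day 25. It was 3 without Con mouse 2, 3 without CR mouse 1 and 2 without CR mouse 3, and C9 was the only gene called whichever mouse was left out. Of all 10593 genes, 593 were called higher and 989 lower at day 25 with every mouse. Without these 3 mice, in the same order, they were 609 and 637, 372 and 632, and 369 and 524. At day 30 the count was 9 without CR mouse 1 and 11 to 15 without any other mouse. Of all genes, 882 were called higher and 1737 lower at day 30 with every mouse, and 517 and 980 without CR mouse 1. C3, C4a, Hc, C6, C8a, C8b, C9, Serping1 and C4bp were called at day 30 whichever mouse was left out. A difference between the days was tested as an interaction, and no complement gene was called in it (lowest adjusted p = 1), where the background was 0.00944%. At an unadjusted p under 0.05, 1 complement gene, C4a, passed, beside 3.46% of all genes. The calls of day 25 and day 30 are therefore given side by side, and a gene called at 1 day only was not shown to respond differently at the other.

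**Figure D2:**
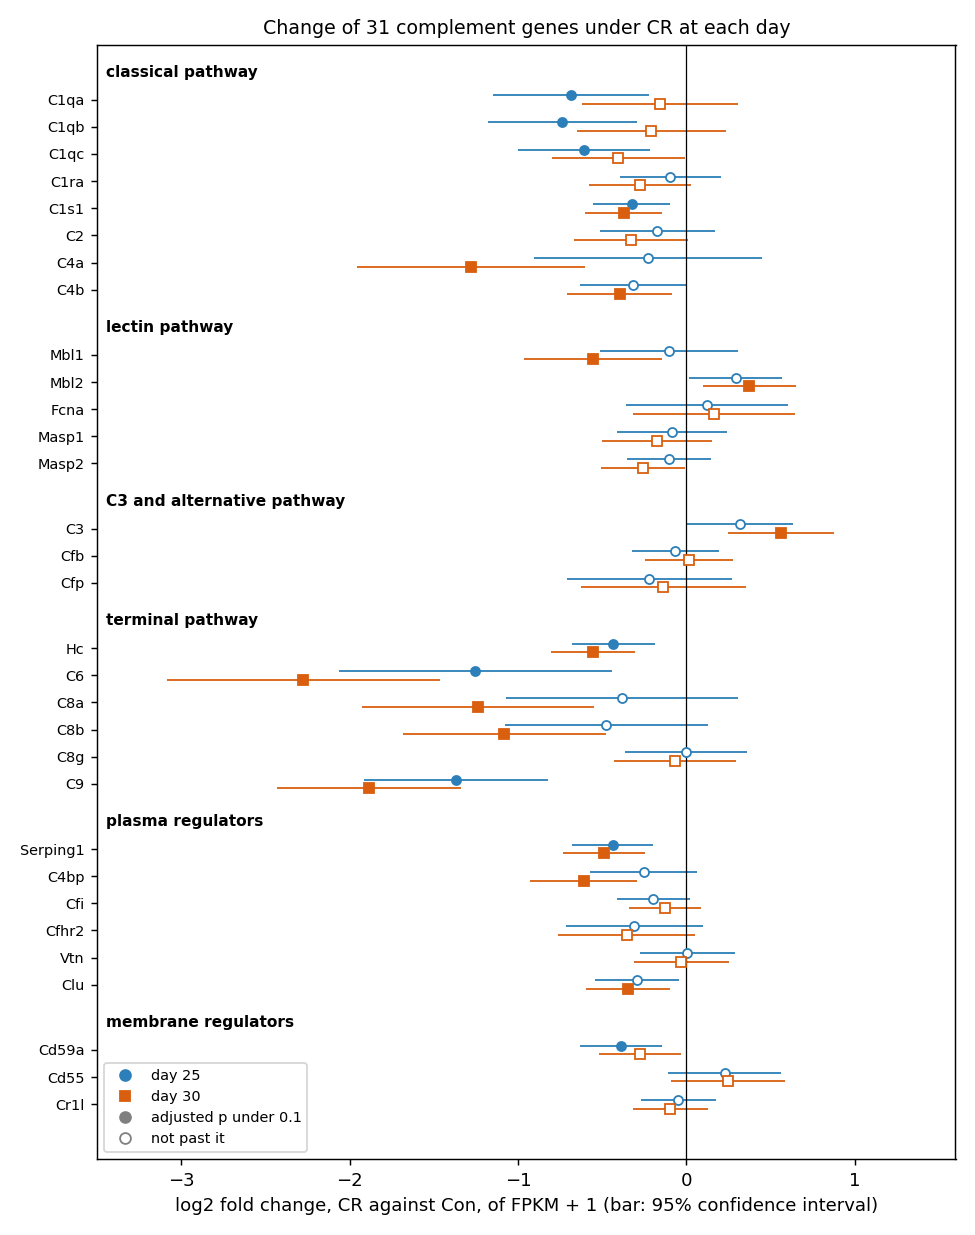
Log2 fold change (CR against Con, of FPKM + 1) of the 31 tested complement genes by arm, with circles for day 25, squares for day 30 and bars for the 95% confidence interval. Filled symbols passed an adjusted p of 0.1. The widest shifts to the left are those of C6 and C9 at both days and of C4a, C8a and C8b at day 30, while C3 and Mbl2 lie to the right of 0.

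The terminal pathway held the largest changes. Of its 7 genes, 6 were tested, and 3 were called lower at day 25, 5 at day 30 and 5 over both days, with none higher. C9 (chr15:6445333-6498476, plus strand, mm10), whose product polymerizes into the wall of the pore, was at 169, 221 and 145 FPKM in the Con mice of day 25 and at 80.3, 88.7 and 43.2 FPKM in the CR mice. At day 30, C9 was at 170, 252 and 220 FPKM in Con mice and at 46.7, 61.1 and 62.8 FPKM in CR mice. The highest of all 6 CR livers lay below the lowest of all 6 Con livers. The log2 fold change of C9 was -1.37 ± 0.25 at day 25 (adjusted p = 0.0070) and -1.89 ± 0.25 at day 30 (adjusted p = 6.8e-04). Mean FPKM of C9 fell by 60.4% under CR at day 25 and fell by 73.4% at day 30.

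C6 (chr15:4727210-4804045, plus strand), which binds C5b in the first step of pore assembly, had the lowest fitted log2 fold change of the 31 tested genes at day 30. Its level was 64.4, 67.7 and 41.8 FPKM in Con mice at day 25 and 21.9, 41.7 and 13.5 FPKM in CR mice. The day 30 values of C6 were 60.6, 86.6 and 55.7 FPKM in Con mice and 7.87, 19.7 and 13.7 FPKM in CR mice. At day 25 the highest CR mouse came within 1 FPKM of the lowest Con mouse, whereas at day 30 the groups lay far apart. C6 had a log2 fold change of -1.25 ± 0.37 at day 25 (adjusted p = 0.055) and -2.28 ± 0.37 at day 30 (adjusted p = 0.0021). Its mean FPKM fell by 55.7% at day 25 and fell by 79.7% at day 30. The day 25 call of C6 was lost without Con mouse 1 (adjusted p = 0.149), Con mouse 2 (0.138), CR mouse 1 (0.133) or CR mouse 3 (0.194), while at day 30 it held without any mouse.

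C8a and C8b encode the alpha and beta chains of C8, and C8g encodes its gamma chain, a lipocalin bound to the alpha chain. C8a was at 137, 160 and 116 FPKM in Con mice and 125, 144 and 62.9 FPKM in CR mice at day 25, and the groups overlapped. The C8a levels at day 30 were 145, 224 and 155 FPKM in Con mice and 46.7, 100.2 and 80.3 FPKM in CR mice, which did not overlap. Its log2 fold change was -0.38 ± 0.32 at day 25 (adjusted p = 0.494) and -1.24 ± 0.32 at day 30 (adjusted p = 0.021).

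C8b had 109, 130 and 88.2 FPKM in Con mice at day 25, against 84.9, 103 and 52.6 FPKM in CR mice. Its values at day 30 were 104, 172 and 117 FPKM in Con mice, against 43.6, 82.0 and 59.9 FPKM in CR mice. As for C8a, the groups overlapped at day 25 and were apart at day 30, with log2 fold changes of -0.48 ± 0.28 (adjusted p = 0.315) and -1.08 ± 0.28 (adjusted p = 0.021). C8a (chr4:104815680-104876398, minus strand) and C8b (chr4:104766317-104804548, plus strand) lie beside each other in mm10, and their ratio of FPKM stayed between 1.07 and 1.47 in the 12 livers.

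C8g was not called at either day or over both. It had the highest mean level of the terminal genes, with 190, 285 and 208 FPKM in Con mice and 208, 257 and 211 FPKM in CR mice at day 25, and with 257, 222 and 238 FPKM in Con mice and 274, 226 and 192 FPKM in CR mice at day 30. The Con and CR mice overlapped at both days. At day 30 the 95% confidence interval of its log2 fold change was -0.43 to 0.30 (adjusted p = 0.822), an interval that leaves out falls of the size fitted for C8a and C8b. Leaving out single mice or scaling by median ratios turned the sign of this small value. Its span overlaps that of Fbxw5 on the opposite strand (mean 14.4 FPKM), and whether exons of the 2 genes overlap was not examined. Reads from any shared stretch cannot be told apart without strand, and their part in the C8g value was not tested. The ratio of C9 to C8g was 0.660 to 1.13 in the 6 Con livers and 0.171 to 0.385 in the 6 CR livers.

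Hc encodes C5, whose cleavage begins the terminal pathway. Its level at day 25 was 152, 156 and 151 FPKM in Con mice and 125, 110 and 106 FPKM in CR mice. At day 30 Hc stood at 149, 191 and 165 FPKM in Con mice and at 104, 114 and 123 FPKM in CR mice. The 6 CR livers were all below the 6 Con livers. The change in Hc was smaller than in C6 or C9, with log2 fold changes of -0.43 ± 0.11 (adjusted p = 0.035) and -0.56 ± 0.11 (adjusted p = 0.0068). The day 25 call of Hc was lost without CR mouse 3. C7, the remaining terminal gene, was listed at 0.035 to 0.231 FPKM (2 to 14 reads) in the 12 livers and was not tested, so C7 mRNA was near the floor of detection in all 4 groups, while the other terminal genes had means of 41.3 FPKM or more.

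C6, C8a, C8b and C9 mostly shared their highest and lowest mice within a group. In Con mice and CR mice of day 25 and Con mice of day 30, the same mouse had the highest level of all 4 genes, and in CR mice of day 30 it did so for 3 of the 4. The lowest mouse was shared by all 4 genes in 3 groups and by 3 genes in Con mice of day 30. At day 25 the highest mouse was number 2 and the lowest number 3 in both diets. The order was shared more widely, and the same highest mouse led in 23 of the 31 tested complement genes in Con mice and 20 in CR mice at day 25, and in 14 and 20 at day 30. At day 25 mouse 2 also had the largest share of reads on exons in its group, 83.6% in Con mice and 84.3% in CR mice. At day 30 the mouse highest for most of the 4 genes had the smallest share among Con mice (78.2%) and the largest among CR mice (82.3%). How often the same mouse led among all genes was not counted, so the order was not shown to be particular to complement, and it was not tested.

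**Figure D3:**
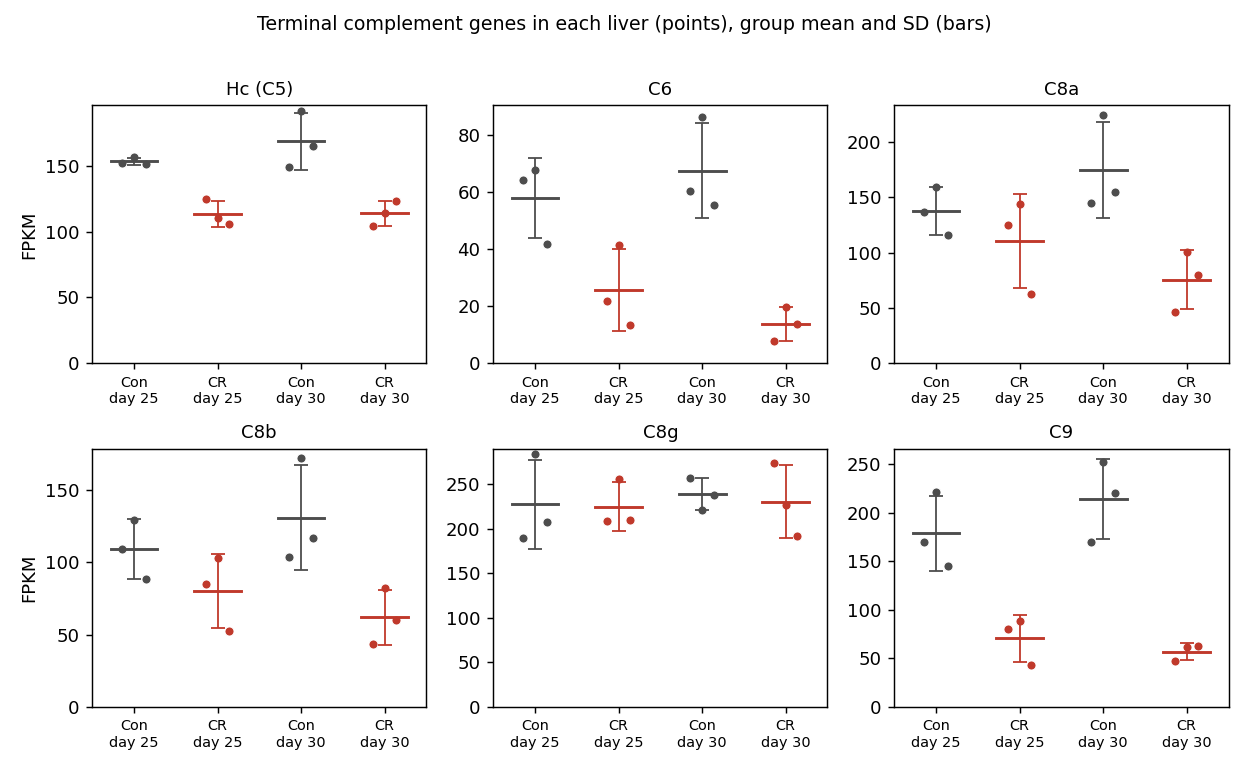
FPKM of 6 terminal pathway genes in each liver, with Con mice in gray and CR mice in red, the group mean as a horizontal line and the SD (n = 3) as a bar. C9 and Hc of CR mice lie below all Con mice at both days, C6 does so by a narrow gap at day 25 and a wide gap at day 30, C8a and C8b separate at day 30, and C8g overlaps throughout.

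Since C6, C8a, C8b and C9 were called lower at day 30 and C8g was not called, the sequence before their starts is shown. The RefSeq promoter table of assembly GRCm38.p6, the assembly of the mm10 build, had 27 of the 36 complement genes. The 250 bases before each start were searched on both strands for TTCNNNGAA, a core of sites bound by STAT factors, for TTGCNNCAA, a core of sites bound by C/EBP factors, and for GTTAAT, the short form of the HNF1 site. The capitals below mark every match on either strand, and no 2 matches overlap.
C6, chr15:4726960-4727209, plus strand: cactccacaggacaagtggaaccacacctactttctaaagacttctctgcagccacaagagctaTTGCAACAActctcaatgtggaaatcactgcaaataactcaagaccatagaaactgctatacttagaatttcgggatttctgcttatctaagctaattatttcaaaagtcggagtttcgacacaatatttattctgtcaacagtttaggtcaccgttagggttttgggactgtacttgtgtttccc
C8a, chr4:104876399-104876648, minus strand: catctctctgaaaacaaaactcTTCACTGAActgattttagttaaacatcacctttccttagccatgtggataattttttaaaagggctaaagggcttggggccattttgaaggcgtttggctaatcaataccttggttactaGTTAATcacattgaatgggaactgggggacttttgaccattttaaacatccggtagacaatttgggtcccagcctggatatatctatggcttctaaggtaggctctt
C8b, chr4:104766067-104766316, plus strand: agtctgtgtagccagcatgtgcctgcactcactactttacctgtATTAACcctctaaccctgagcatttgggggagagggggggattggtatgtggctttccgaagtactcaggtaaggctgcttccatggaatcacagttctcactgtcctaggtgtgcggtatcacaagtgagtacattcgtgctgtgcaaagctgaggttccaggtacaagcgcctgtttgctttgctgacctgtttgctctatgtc
C9, chr15:6445096-6445345, plus strand: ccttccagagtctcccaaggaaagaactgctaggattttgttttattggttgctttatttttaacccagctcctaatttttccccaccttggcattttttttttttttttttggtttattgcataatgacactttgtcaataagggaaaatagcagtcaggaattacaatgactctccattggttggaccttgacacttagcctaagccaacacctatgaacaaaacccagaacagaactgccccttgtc
C8g, chr2:25501720-25501969, minus strand: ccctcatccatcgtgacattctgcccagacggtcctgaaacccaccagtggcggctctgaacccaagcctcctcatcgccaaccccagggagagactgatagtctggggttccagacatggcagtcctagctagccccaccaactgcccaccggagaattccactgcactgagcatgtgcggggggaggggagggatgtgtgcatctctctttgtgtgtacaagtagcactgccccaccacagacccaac
The STAT core was present in C8a, in Masp2 and in C7, and in 6.92% of 17563 promoters of the same length. C6 and C7 held TTGCNNCAA, which 1.52% of all promoters held. The HNF1 letters, held by 5.84% of all promoters, were present in 9 of the 27 complement promoters. These were C1ra, Cfp, Hc, C7, C8a, C8b, C4bp, Cfhr2 and Vtn, of which C1ra, Cfp and Vtn were not called and C7 was not tested. The 5.84% covers all promoters and not those of liver genes alone. The C9 window, whose start lies 13 bases from the gene start in the deposited table, and the C8g window held none of the 3. No string was common to all of C6, C8a, C8b and C9. C6, C8a and C9 had 38.8% to 40.0% G and C in these windows, C8b had 50.4% and C8g 59.2%, beside a median of 55.6% over all promoters. A match is a match of letters only.

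In the classical pathway, 4 of the 8 genes were called lower at day 25, 3 at day 30 and 7 over both days, and none were higher. The C1q chains form the molecule that recognizes antibody bound to a surface. C1qa was at 12.2, 21.8 and 12.0 FPKM in Con mice and 8.15, 8.73 and 9.56 FPKM in CR mice at day 25. C1qb was at 10.4, 18.3 and 11.001 FPKM in Con mice and 7.14, 7.21 and 7.57 FPKM in CR mice, and C1qc at 11.2, 16.7 and 12.2 FPKM in Con mice and 7.87, 8.78 and 8.30 FPKM in CR mice. For all 3 chains the CR mice of day 25 lay below the Con mice, and Con mouse 2 stood above the other mice. The log2 fold changes at day 25 were -0.68 ± 0.21 for C1qa (adjusted p = 0.067), -0.74 ± 0.20 for C1qb (adjusted p = 0.041) and -0.61 ± 0.18 for C1qc (adjusted p = 0.056).

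Without Con mouse 2 the day 25 fold changes of C1qa, C1qb and C1qc were -0.42, -0.50 and -0.45, and none was called. Without CR mouse 1 they were -0.64, -0.72 and -0.57, and again none was called. C1qa also lost its call without CR mouse 2 or CR mouse 3, and C1qc without CR mouse 3. At day 30, C1qa was at 16.2, 14.7 and 10.996 FPKM in Con mice and 10.8, 15.8 and 10.8 FPKM in CR mice. C1qb was at 10.9, 11.8 and 7.85 FPKM in Con mice and 7.54, 11.1 and 7.46 FPKM in CR mice, and C1qc at 17.4, 15.4 and 11.5 FPKM in Con mice and 9.77, 14.0 and 9.06 FPKM in CR mice. The groups of day 30 overlapped for each chain, and none was called (log2 fold changes of -0.16, -0.21 and -0.40, adjusted p = 0.652, 0.510 and 0.149). Over both days the fold changes were -0.42, -0.47 and -0.51, and all 3 were called. The C1qa call over both days was lost without any of 7 mice, with a value of -0.27 without Con mouse 2 of day 25.

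Kupffer cell markers were read beside the C1q chains, and their part in the C1q result was not tested. Of 10 such markers, all tested, 4 were called lower in CR mice at day 25 (Clec4f, Cd5l, Csf1r and Folr2) and none higher, and their summed level was 76.9 to 111 FPKM in Con mice and 55.2 to 66.6 FPKM in CR mice. At day 30, 1 was lower (Slc40a1) and 2 were higher (Marco and Cd163), with sums of 77.6 to 95.1 FPKM and 68.4 to 86.1 FPKM. By sign of the log2 fold change alone, 9 markers were lower and 1 higher at day 25, and 8 were lower and 2 higher at day 30. The 1 higher at day 25 was Marco, which was not called there (0.37, adjusted p = 0.338). The lowest of the list was Timd4 (mean 0.917 FPKM) and the highest Slc40a1 (mean 36.8 FPKM), which made up a large part of the sums. Without Slc40a1 the sums at day 25 were 41.0 to 69.9 FPKM in Con mice and 26.4 to 35.1 FPKM in CR mice. At day 30 they were 37.3 to 52.8 FPKM in Con mice and 36.4 to 48.3 FPKM in CR mice, which overlapped. Clec4f, a lectin of Kupffer cells, was at 12.4, 21.4 and 12.9 FPKM in Con mice and 8.54, 9.59 and 9.19 FPKM in CR mice at day 25, with Con mouse 2 again highest. The summed FPKM of C1qa, C1qb and C1qc divided by that of Clec4f was 2.65 to 2.73 in Con mice and 2.58 to 2.77 in CR mice at day 25, and 2.68 to 2.86 and 2.89 to 3.15 at day 30. At day 30 the CR mice thus lay above the Con mice in this ratio. No other marker was used as the divisor, so the narrow range at day 25 was not shown for the rest of the list. In whole liver, fewer Kupffer cells and less of these mRNAs per cell cannot be told apart. Vsig4, a complement receptor of Kupffer cells outside the 36 genes, was also called lower at day 25 (log2 fold change -0.71, adjusted p = 0.030), with 0.02 at day 30 (adjusted p = 0.962).

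**Figure D4:**
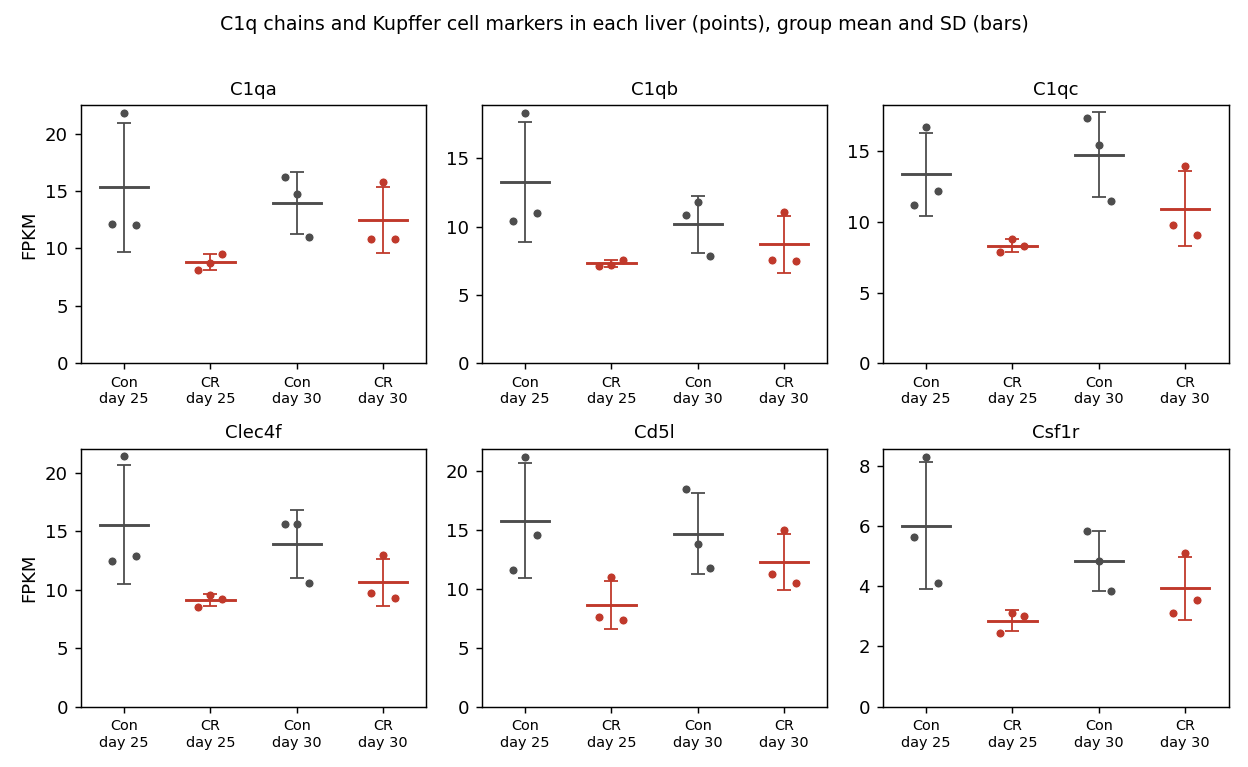
FPKM of C1qa, C1qb and C1qc (upper row) and of the Kupffer cell markers Clec4f, Cd5l and Csf1r (lower row) in each liver, with the group mean as a line and the SD (n = 3) as a bar. The 6 genes share a high Con mouse and low CR mice at day 25, and their groups overlap at day 30. The markers shown are among the 4 of 10 called lower at day 25. Marco and Cd163 of the same list, not shown, were called higher at day 30.

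C1s1, the protease that C1q activates to cleave C4 and C2, was the classical gene called at both days. Its values were 125, 131 and 114 FPKM in Con mice and 101, 107 and 88.1 FPKM in CR mice at day 25. At day 30 they were 119, 111 and 124 FPKM in Con mice and 87.0, 98.2 and 88.1 FPKM in CR mice. All CR livers were below all Con livers, by log2 fold changes of -0.32 ± 0.11 (adjusted p = 0.075) and -0.37 ± 0.11 (adjusted p = 0.032). The call of C1s1 was lost without any of 4 mice at day 25 (Con mice 1 and 2, CR mice 1 and 3) and without either of 2 mice at day 30, 1 Con mouse and CR mouse 1. C1ra, the protease that activates it, was at 40.4 to 65.6 FPKM in the 12 livers and was not called, with log2 fold changes of -0.09 at day 25 and -0.27 at day 30.

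C2, which supplies the protease of the classical C3 convertase, was at 32.7, 54.7 and 38.5 FPKM in Con mice and 34.1, 41.1 and 34.2 FPKM in CR mice at day 25, and at 41.4, 42.5 and 42.8 FPKM and 34.1, 36.0 and 30.4 FPKM at day 30. The mice of day 25 overlapped and those of day 30 did not. C2 was called over both days only (log2 fold change -0.25, adjusted p = 0.095), and that call was lost without any of 9 mice. C4b, which encodes C4 and was the highest classical gene, was at 145, 188 and 204 FPKM in Con mice and 149, 154 and 125 FPKM in CR mice at day 25. At day 30 C4b was at 168, 140 and 147 FPKM in Con mice and 105, 130 and 111 FPKM in CR mice. The groups overlapped at day 25 and were apart at day 30. C4b had a log2 fold change of -0.32 ± 0.14 at day 25 (adjusted p = 0.196) and -0.40 ± 0.14 at day 30 (adjusted p = 0.081). The day 30 call was lost without any of the Con mice of that day, without CR mouse 1 or CR mouse 3, and under median-ratio scaling.

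C4a, a close copy of C4b on chromosome 17 that encodes the sex-limited protein, was far lower. It was at 1.72, 1.82 and 1.73 FPKM in Con mice and 1.06, 2.40 and 0.860 FPKM in CR mice at day 25. At day 30 it was at 2.05, 6.98 and 2.13 FPKM in Con mice and 0.790, 0.628 and 0.830 FPKM in CR mice. The groups overlapped at day 25, and at day 30 the CR mice lay below the Con mice, of which 1 was more than 3 times as high as the others. For C4a the log2 fold change was -0.23 ± 0.31 (adjusted p = 0.706) and -1.28 ± 0.31 (adjusted p = 0.017). Without that Con mouse the day 30 value was -0.82 (adjusted p = 0.025), and with a pseudocount of 0.1 in place of 1 it was -1.94. C4a had 65 to 792 reads in a library and C4b 12949 to 18501, and how reads were divided between the copies was not tested, so the level of C4a is uncertain.

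The lectin pathway showed changes in both directions. Of its 5 genes, none was called at day 25, and at day 30 and over both days 1 was higher and 1 lower. Mbl2, which encodes mannose-binding lectin C and was the highest of the arm, was at 255, 284 and 224 FPKM in Con mice and 301, 341 and 291 FPKM in CR mice at day 25. The day 30 values were 265, 235 and 245 FPKM in Con mice and 363, 330 and 279 FPKM in CR mice. The CR mice lay above the Con mice of their day, with log2 fold changes of 0.29 ± 0.13 (adjusted p = 0.174) and 0.38 ± 0.13 (adjusted p = 0.063). Over both days the value was 0.33 (adjusted p = 0.011).

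Mbl1, which encodes mannose-binding lectin A, went the other way at day 30. Its levels at day 25 were 103, 125 and 86.6 FPKM in Con mice and 92.3, 118 and 83.1 FPKM in CR mice, and the groups overlapped. The day 30 levels were 108, 136 and 92.1 FPKM in Con mice and 71.5, 91.3 and 64.9 FPKM in CR mice, with the highest CR mouse just under the lowest Con mouse. Mbl1 had log2 fold changes of -0.10 ± 0.19 (adjusted p = 0.790) and -0.55 ± 0.19 (adjusted p = 0.066). The ratio of Mbl1 to Mbl2 was 0.387 to 0.442 in Con mice and 0.285 to 0.346 in CR mice at day 25, and 0.377 to 0.576 in Con mice and 0.197 to 0.276 in CR mice at day 30, so the 6 CR livers lay below the 6 Con livers. Each day 30 call was lost without any of 4 of the 6 mice of that day. Over both days Mbl1 had -0.33 (adjusted p = 0.097), a call lost without any of 9 mice, under median-ratio scaling and with no filter on low values.

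Fcna, which encodes ficolin A, was at 8.55 to 17.2 FPKM and was not called. Masp1, a protease bound to the lectins, was at 24.6 to 38.1 FPKM, and its partner Masp2, which cleaves C4 and C2, at 90.6 to 129 FPKM. Neither protease was called at a day or over both days. Reads of Masp2 were counted on a short transcript of 737 bases, so its level is not that of the long form alone.

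C3, the protein on which the pathways converge, was higher under CR. It was at 1416, 1586 and 1815 FPKM in Con mice and 1879, 1830 and 2302 FPKM in CR mice at day 25. At day 30 C3 was at 1474, 1482 and 1442 FPKM in Con mice and 2323, 1785 and 2447 FPKM in CR mice. The CR mice were above the Con mice at both days, though by a narrow gap at day 25. C3 had a log2 fold change of 0.32 ± 0.14 at day 25 (adjusted p = 0.194), 0.56 ± 0.14 at day 30 (adjusted p = 0.021) and 0.44 ± 0.10 over both days (adjusted p = 0.0068). Mean C3 was 49.0% higher under CR at day 30. The call at day 30 held without any mouse.

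C3 and C5 are related proteins at consecutive steps, and their mRNAs changed in opposite directions. The ratio of C3 to Hc was 7.75 to 12.0 in the 6 Con livers and 15.1 to 22.2 in the 6 CR livers. The summed FPKM of all 36 complement genes was 6237 to 7512 in Con mice and 6430 to 6843 in CR mice at day 25, and 6317 to 6788 and 6217 to 6513 at day 30. C3 made up 21.1% to 26.8% of that sum in Con mice and 26.7% to 35.4% in CR mice at day 25, and 21.8% to 22.8% and 28.7% to 37.8% at day 30. The total thus overlapped between groups at both days, whereas the share of C3 at day 30 did not.

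Factor B, encoded by Cfb, supplies the protease of the alternative C3 convertase, and it was not called. Its FPKM was 334 to 464 over the 12 livers with log2 fold changes of -0.06 at day 25 (95% confidence interval -0.32 to 0.20) and 0.02 at day 30 (-0.24 to 0.28), and the sign changed with the scaling. Cfp, which encodes properdin, the stabilizer of that convertase, was at 3.51 to 8.94 FPKM and was not called. Cfd, which encodes factor D, is known as a product of adipocytes. It was at 1.07, 0.072 and 0.704 FPKM in Con mice and 0, 0 and 0.066 FPKM in CR mice at day 25. The highest CR value and the lowest Con value of that day rest on too few reads to set the groups apart. Over the 12 livers Cfd had 0 to 68 reads. At day 30 it was at 0.450, 0.185 and 3.97 FPKM in Con mice and 0.113, 0.135 and 0.226 FPKM in CR mice, which overlapped. The Con liver at 3.97 FPKM also held 0.795 FPKM of Adipoq, 0.312 of Plin1 and 0.926 of Retn, genes of adipocytes that were at 0.170 FPKM or less in each of the other 11 livers. The part of fat tissue in this value was not tested. The adipocyte list of 7 genes ran from Lep (mean 0.00258 FPKM) to Car3 (mean 592 FPKM), which liver also expresses.

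Among the 6 regulators secreted into plasma, 1 was called lower at day 25, 3 at day 30 and 5 over both days, and none higher. Serping1 encodes the C1 inhibitor, which inactivates the proteases of C1 and of the lectin pathway. Its levels were 343, 416 and 366 FPKM in Con mice and 268, 309 and 253 FPKM in CR mice at day 25. At day 30 they were 348, 350 and 322 FPKM in Con mice and 232, 259 and 235 FPKM in CR mice. Every CR liver was below every Con liver. The log2 fold change of Serping1 was -0.44 ± 0.11 at day 25 (adjusted p = 0.031) and -0.49 ± 0.11 at day 30 (adjusted p = 0.012), and the day 25 call was lost without CR mouse 3.

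C4bp, the binding protein through which factor I cuts C4b, was at 177, 170 and 179 FPKM in Con mice and 157, 170 and 119 FPKM in CR mice at day 25. In Con mice of day 30 it was at 230, 174 and 192 FPKM, and in CR mice at 120, 147 and 122 FPKM. The groups touched at day 25 and were apart at day 30, with log2 fold changes of -0.25 ± 0.15 (adjusted p = 0.312) and -0.61 ± 0.15 (adjusted p = 0.016). Clusterin, an inhibitor of pore assembly encoded by Clu, was at 713, 908 and 771 FPKM in Con mice and 645, 718 and 589 FPKM in CR mice at day 25. At day 30 Clu was at 737, 720 and 671 FPKM in Con mice and 564, 552 and 559 FPKM in CR mice. The CR mice overlapped the Con mice at day 25 by a few FPKM and lay below them at day 30. Clu had log2 fold changes of -0.29 ± 0.12 (adjusted p = 0.139) at day 25 and -0.34 ± 0.12 (adjusted p = 0.061). The day 30 call was lost under median-ratio scaling and without any of 5 of the 6 mice of that day.

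Cfi, which encodes factor I, and Cfhr2, a relative of factor H, were called over both days only, with log2 fold changes of -0.16 (adjusted p = 0.082) and -0.33 (adjusted p = 0.063). Cfi was at 225, 238 and 253 FPKM in Con mice and 218, 216 and 192 FPKM in CR mice at day 25. At day 30 it was at 240, 236 and 233 FPKM in Con mice and 200, 232 and 219 FPKM in CR mice. The Cfi values of CR mice were below those of Con mice within each day by gaps of a few FPKM. Cfhr2 was at 178, 121 and 115 FPKM in Con mice and 119, 91.5 and 119 FPKM in CR mice at day 25, and at 145, 175 and 195 FPKM and 112, 136 and 154 FPKM at day 30, with overlap at both days. Both calls were lost under median-ratio scaling, the Cfi call without any of 8 mice and the Cfhr2 call without any of 5.

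Vitronectin, which keeps the nascent pore from inserting into membranes, is encoded by Vtn, the highest of the plasma regulators. Vtn was at 1076, 1458 and 1174 FPKM in Con mice and 1193, 1325 and 1183 FPKM in CR mice at day 25. At day 30 it was at 1246, 1134 and 1024 FPKM in Con mice and 1141, 1158 and 1033 FPKM in CR mice. The groups overlapped, and the 95% confidence interval of the log2 fold change was -0.27 to 0.29 at day 25 and -0.31 to 0.25 at day 30, with a sign that changed with the scaling. Of the inhibitors of the terminal pathway, Clu and Cd59a were thus called lower over both days and Vtn was not called.

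Cd59a encodes the membrane protein that stops C9 from polymerizing and was the highest of the membrane regulators. It was at 25.6, 24.3 and 22.5 FPKM in Con mice and 18.4, 17.5 and 18.7 FPKM in CR mice at day 25. At day 30 Cd59a was at 28.0, 21.0 and 23.4 FPKM in Con mice and 19.2, 21.9 and 18.1 FPKM in CR mice. The groups were apart at day 25 and overlapped at day 30. The log2 fold change was -0.39 ± 0.11 at day 25 (adjusted p = 0.049), -0.27 ± 0.11 at day 30 (adjusted p = 0.115) and -0.33 ± 0.08 over both days (adjusted p = 0.0063), and the day 25 call held only when the mouse left out was Con mouse 3 or a mouse of day 30. Cd55, which encodes an accelerator of convertase decay, was at 1.43 to 3.04 FPKM and was not called (log2 fold change 0.23 at day 25 and 0.25 at day 30). Cr1l, the rodent cofactor Crry, was at 12.1 to 16.0 FPKM and was not called. The close copy Cd59b had a mean of 1.22 FPKM, and reads could be split between it and Cd59a. Cd46, a cofactor that mice express mostly in testis, was at 0.110 to 0.729 FPKM and was not tested.

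The receptors of C3a and C5a, which attract and activate myeloid cells, were near the floor. C3ar1 was at 0.291, 0.443 and 0.180 FPKM in Con mice and 0.187, 0.133 and 0.139 FPKM in CR mice at day 25, and at 0.352, 0.229 and 0.299 FPKM and 0.130, 0.239 and 0.279 FPKM at day 30, with 9 to 35 reads in a library. C5ar1 was at 0.035 to 0.396 FPKM (2 to 18 reads). The groups overlapped for C3ar1 at both days, and neither receptor was tested. Of the 8 neutrophil markers, S100a8 had the highest mean (0.234 FPKM) and Camp was listed at 0 in all 12 livers, and the list summed to 0.552 to 1.12 FPKM in Con mice and 0.037 to 0.248 FPKM in CR mice at day 25, and to 0.462 to 1.62 FPKM and 0.080 to 0.849 FPKM at day 30, where the groups overlapped. The 7 lymphocyte markers, from Ncr1 (mean 0.0372 FPKM) to Nkg7 (mean 0.240 FPKM), summed to at most 1.80 FPKM in any liver.

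Markers of other liver cells were read beside the complement genes, and their part in the results was not tested. Of 10 stellate and mesenchymal markers, from Acta2 (mean 0.202 FPKM) to Dcn (mean 50.3 FPKM), 8 were tested, with 1 higher at day 25 and 4 higher at day 30. The 7 endothelial markers ran from Vwf (mean 0.510 FPKM) to Clec4g (mean 20.8 FPKM), and of 6 tested 1 was higher at day 25 and 2 at day 30. The 6 biliary and mesothelial markers, from Epcam (mean 0.420 FPKM) to Sox9 (mean 1.14 FPKM), summed to 2.65 to 6.37 FPKM over the 12 livers. Of the 10 hepatocyte markers, all tested, 1 was higher at day 25, and 3 were higher and 2 lower at day 30.

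**Figure D5:**
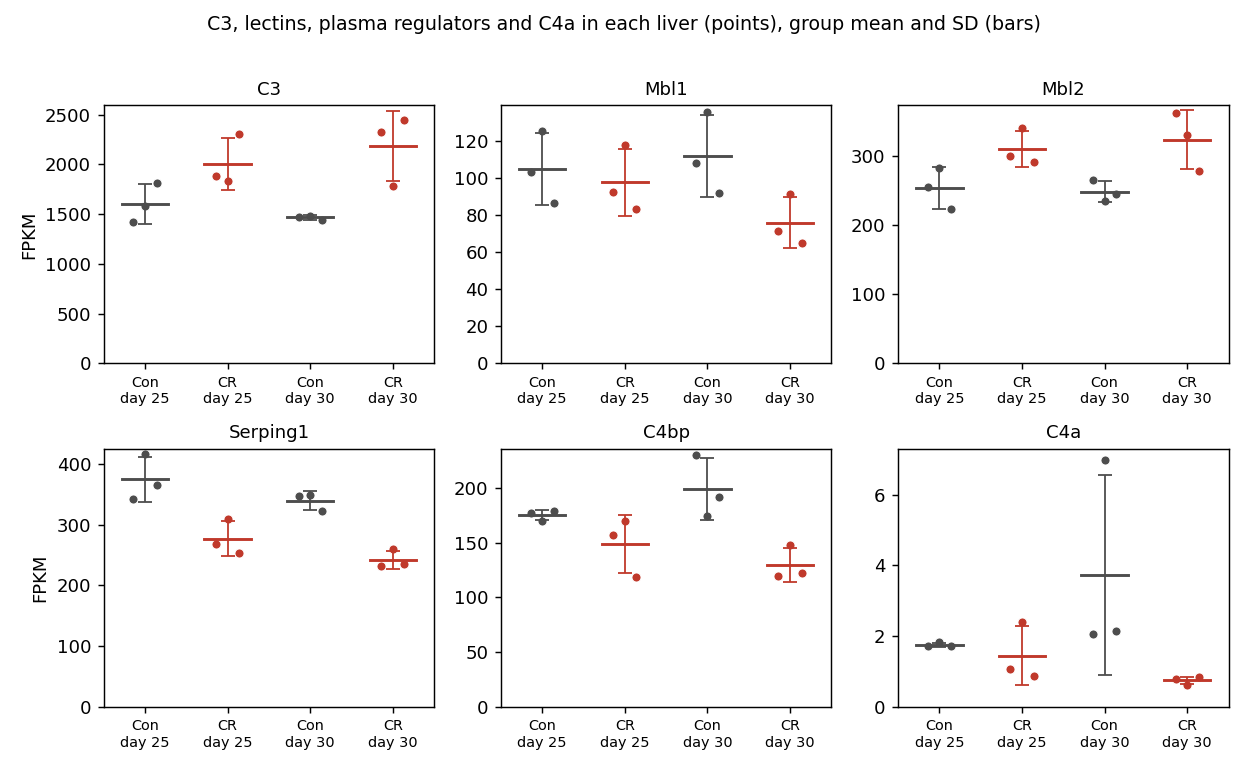
FPKM of C3, the lectins Mbl1 and Mbl2, the plasma regulators Serping1 and C4bp, and C4a in each liver, with the group mean as a line and the SD (n = 3) as a bar. CR mice lie above Con mice for C3 and Mbl2 and below them for Serping1 at both days, Mbl1, C4bp and C4a separate at day 30, and 1 Con mouse of day 30 stands apart for C4a at 6.98 FPKM.

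Other genes of the system outside the 36 were read from a second list of 18, of which 9 were tested. At day 25 only Vsig4 was called. At day 30, 2 were called lower and 1 higher. Susd4, which encodes a membrane inhibitor of complement, had a log2 fold change of -0.89 (adjusted p = 0.016), and Cpn2, the regulatory chain of the carboxypeptidase that inactivates C3a and C5a, of -0.36 (adjusted p = 0.033). Colec10, a soluble collectin, was higher by 0.28 (adjusted p = 0.042). Over both days Colec10, Colec11, a second collectin, and C1qbp were higher, and Cpn2 and Susd4 were lower.

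Coagulation factors and their inhibitors are likewise secreted by hepatocytes. Of 25 such genes 24 were tested, and 1 was called lower and 0 higher at day 25. At day 30, 2 were lower and 2 higher, which is 16.7% of them called, beside 45.2% of the complement genes and 24.7% of all genes. The median log2 fold change of the coagulation genes was 0.01 at day 25 and -0.04 at day 30. These lists share the 12 livers and were chosen with earlier results of these data known, and the difference between them was not tested.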

How the data were processed

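Liver RNA libraries of 12 mice (RNeasy kit, Illumina HiSeq4000, paired reads of 100 bases on a single lane) were mapped by the authors to mm10 with BWA, and the submitters' processing notes also name CASAVA 1.8.2, FastQC and DESeq2. The authors deposited FPKM values, which per the file header come from HOMER, counting exon reads for 1 transcript of each gene, and which were not scaled further between libraries. Strand use in counting is not given in the sources used here. FPKM are not counts, so no count test was the main test. Depth (15748767 to 23345207 reads) was read from the spacing of low FPKM values (100% of 1500 per library were whole reads within 0.1 read), and it limits the precision of genes with few reads. Fragments were counted without molecular identifiers.

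Groups came from the sample titles. The 3 Con columns of day 30 cannot be told apart by the labels and were used as replicates without numbers. The 4 groups were fitted in 1 limma 3.58.1 model (R 4.3.3) of log2(FPKM + 1), with moderation that allowed a trend with expression, for the 10593 genes that reached FPKM 1 in 3 or more libraries. Contrasts were CR against Con at each day, their difference, and CR against Con over both days with day as a covariate. A call was a Benjamini-Hochberg adjusted p under 0.1 over all genes tested, 2-sided, and a 2-fold limit was counted beside it. Summaries used pandas 2.3.3 and numpy 2.4.6 in Python 3.11.15, and plots used matplotlib 3.10.9.

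The complement genes and the other lists were chosen with earlier results of these data known. Named with the value of each liver were genes called at either day or over both days and the highest gene of each arm; other members are given by range. Lists of other complement genes, coagulation genes and markers of Kupffer cells, hepatocytes, adipocytes, neutrophils, lymphocytes, stellate and mesenchymal, endothelial, and biliary and mesothelial cells were read beside them. A single further item is not reported here. Promoter sequences are RefSeq (GRCm38.p6). Nothing in the labels says that equal replicate numbers mark a shared cage or day, but at day 25 same-numbered Con and CR mice deviated together (r of 0.106 to 0.368 across genes, against a mean of -0.131 for other pairs), so a block on the number was fitted as an alternative at day 25. Other alternatives were pseudocounts of 0.1 and 0.01, no filter, a filter at FPKM 5, median-ratio scaling, TPM, quantile normalization, no trend, only the groups of a day, voom on the recovered reads, an adjusted p under 0.05, and leaving out each mouse. Each p-value sets a difference between groups against the spread between mice, pooled over the groups fitted and moderated across genes.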

Additional observations from a re-analysis of the deposited data

How the results depend on the processing

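With an adjusted p under 0.05 in place of 0.1, 5 complement genes were called at day 25, and with a 2-fold limit added 2 were called at day 25, 5 at day 30 and 2 over both days. Of all 10593 genes, 353 were higher and 616 lower at day 25 at an adjusted p under 0.05. Without single mice the count was 2 to 9 at day 25, 9 to 15 at day 30 and 16 to 22 over both days, and the difference between days had 0 calls under each alternative run. Of all genes, 319 to 609 were then higher and 524 to 995 lower at day 25. The ranges were 517 to 915 and 980 to 1785 at day 30, and 1313 to 1661 and 2349 to 2724 over both days. Under all other alternatives these counts stayed within 1.5 times the values given. Median-ratio scaling gave 1 higher and 9 lower at day 25 and 2 higher and 10 lower at day 30, and TPM and voom each gave 2 higher and 17 lower at day 30. Calls over all genes at day 30 were 868 higher and 2121 lower of 12220 with TPM, and 871 and 2315 of 10593 with voom.

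The replicate block at day 25 gave 10 calls at day 25, adding Clu, and 23 over both days, adding C1ra and Masp2. Over all genes it gave 675 higher and 1073 lower at day 25, and 1664 and 2946 over both days. No paired analysis was possible at day 30 because the labels tie none of the Con columns of that day to a numbered mouse.

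No called gene changed sign under the alternatives run. Signs turned for small log2 fold changes that were not called. With median-ratio scaling C8g was 0.062 at day 25, 0.017 at day 30 and 0.040 over both days, Vtn 0.054 at day 30 and 0.062 over both days, Cfb 0.049 over both days and Cr1l 0.0099 at day 25. With quantile normalization Vtn was 0.048 at day 30 and 0.057 over both days, and Cfb -0.051 at day 30. For Vtn at day 25 and Cfb at day 30, TPM gave -0.011 and -0.017, and voom -0.013 and -0.021. Without single mice the day 25 values were -0.19 to 0.028 for C1ra, -0.33 to 0.033 for C2, -0.24 to 0.031 for Mbl1, -0.088 to 0.38 for Fcna, -0.18 to 0.062 for Masp1, -0.17 to 0.059 for Cfb, -0.44 to 0.098 for Cfp, -0.12 to 0.17 for C8g and -0.087 to 0.13 for Vtn. At day 30 they were -0.038 to 0.067 for Cfb, -0.20 to 0.060 for C8g and -0.10 to 0.041 for Vtn, and over both days -0.065 to 0.036, -0.089 to 0.040 and -0.054 to 0.043. The cause was not tested. Depth leaves C7, Cfd, C3ar1, C5ar1 and Cd46 with too few reads for a comparison.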
